A study of Rattus norvegicus with 288 samples.

Results

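The cell cycle and DNA replication genes described here are a list of 40 symbols. They cover cyclins and the kinase they bind, the MCM helicase, and other genes of replication origins and forks, called fork genes below. Nucleotide synthesis enzymes, spindle checkpoint and spindle proteins, mitotic kinases and the transcription factor Foxm1 are also listed. Members were the listed genes with a probe set annotated to a single symbol on the Affymetrix Rat Genome array, taking in each tissue the probe set with the highest mean. Of the 40 listed genes, 37 were found, of 14218 genes in all, and Cdc6, Rrm2 and Tpx2 had no such probe set. Of the 37, 28 had 1 probe set and 9 had several, and 34 were read from the same probe set in the 3 tissues.

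The arrays came from 96 male Sprague-Dawley rats of 7 to 8 weeks, each of which gave bone marrow, heart and liver, so there were 288 arrays. Rats received temsirolimus (0.3 mg/kg) or its vehicle, labelled TEM_vehicle, into a vein, and 30 min later by mouth sunitinib (5 mg/kg), sorafenib (25 mg/kg) or an oral vehicle. The oral vehicle was sterile water in the sunitinib arm and F68/PG/PEG400 in the sorafenib arm. The 8 resulting treatments were temsirolimus plus sunitinib, temsirolimus plus sorafenib, temsirolimus with water, temsirolimus with F68/PG/PEG400, sunitinib alone, sorafenib alone, and both vehicles with water or with F68/PG/PEG400. Tissues were taken 1, 6 or 24 h later from 4 rats per treatment and time. Every rat thus carried an intravenous and an oral dose, and every rat was of 1 strain, 1 sex and 1 dose level, which limits what the groups stand for. Temsirolimus inhibits the kinase mTOR, and sunitinib and sorafenib inhibit several receptor tyrosine kinases, among them those for vascular growth factors. All levels are log2 signals after RMA (robust multi-array average), and a change is a difference of log2 means.

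Most of these genes are transcribed in waves as a cell divides. Genes for licensing and copying DNA peak as cells enter DNA synthesis and are controlled mainly by E2F factors, and genes for the spindle and for cell division peak later, under factors that read CHR and CCAAT elements in their promoters, with the MuvB complex and Foxm1 among them. Bone marrow renews blood cells continuously, whereas most hepatocytes and heart muscle cells of an adult are not dividing, so in liver and heart these transcripts also mark scattered cells in cycle, including non-parenchymal and infiltrating cells. In whole tissue, fewer cells in cycle and less RNA per cell cannot be told apart.

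Promoters of many, but not all, of the listed genes show these elements. RefSeq (build GRCr8) gave a single promoter of 300 bases, 250 before the start site and 50 from it on, for 29 of the 40 listed genes. The motifs searched on both strands were TTTGAA (the CHR core), CCAAT, and for E2F TTTCCCGC and TTTGGCGC. TTTGAA stood in 13 of the 29 promoters (44.8%, against 18.3% of 33465 rat promoters of the same length), CCAAT in 23 (79.3%, against 37.5%), an E2F motif in 8 (27.6%, against 1.45%), and TTTGAA together with CCAAT in 11 (37.9%, against 7.41%). In these 29 promoters, 3 pairs of matches overlapped. The sequences of 3 members of division (Cdk1, Mki67 and Top2a) and 3 of replication (Gmnn, Mcm6 and Pclaf) are given 5′ to 3′ along the gene, with each match to a motif or to its reverse complement in capitals. They lie at chr20:19265043-19265342 on the plus strand, chr1:199952544-199952843 on the minus strand, chr10:84473044-84473343 on the minus strand, chr17:40729584-40729883 on the plus strand, chr13:42404303-42404602 on the minus strand and chr8:75315467-75315766 on the plus strand.
Cdk1: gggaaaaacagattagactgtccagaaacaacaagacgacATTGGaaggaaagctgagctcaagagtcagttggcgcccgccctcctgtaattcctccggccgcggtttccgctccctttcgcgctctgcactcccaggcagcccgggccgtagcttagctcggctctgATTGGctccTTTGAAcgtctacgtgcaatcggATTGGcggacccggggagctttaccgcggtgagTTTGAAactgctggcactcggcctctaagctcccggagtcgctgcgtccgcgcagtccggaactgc
Mki67: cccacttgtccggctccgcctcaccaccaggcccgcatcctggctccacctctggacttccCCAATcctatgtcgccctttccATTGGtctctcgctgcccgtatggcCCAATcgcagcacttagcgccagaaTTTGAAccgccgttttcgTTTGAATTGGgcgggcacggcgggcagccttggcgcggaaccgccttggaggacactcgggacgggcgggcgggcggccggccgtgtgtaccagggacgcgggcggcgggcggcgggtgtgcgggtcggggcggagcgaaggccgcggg
Top2a: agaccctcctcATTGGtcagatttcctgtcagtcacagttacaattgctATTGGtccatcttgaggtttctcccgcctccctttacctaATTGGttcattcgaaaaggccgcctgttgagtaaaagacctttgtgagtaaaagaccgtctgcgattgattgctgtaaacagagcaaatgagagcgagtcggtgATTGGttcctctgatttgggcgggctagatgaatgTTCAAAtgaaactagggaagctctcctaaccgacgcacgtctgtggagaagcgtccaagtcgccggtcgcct
Gmnn: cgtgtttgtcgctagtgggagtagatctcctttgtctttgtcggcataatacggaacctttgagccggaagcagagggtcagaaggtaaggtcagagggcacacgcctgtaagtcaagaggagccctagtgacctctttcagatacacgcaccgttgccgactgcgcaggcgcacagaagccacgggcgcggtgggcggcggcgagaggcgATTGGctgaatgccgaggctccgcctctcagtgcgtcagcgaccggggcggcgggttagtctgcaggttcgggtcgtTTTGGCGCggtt
Mcm6: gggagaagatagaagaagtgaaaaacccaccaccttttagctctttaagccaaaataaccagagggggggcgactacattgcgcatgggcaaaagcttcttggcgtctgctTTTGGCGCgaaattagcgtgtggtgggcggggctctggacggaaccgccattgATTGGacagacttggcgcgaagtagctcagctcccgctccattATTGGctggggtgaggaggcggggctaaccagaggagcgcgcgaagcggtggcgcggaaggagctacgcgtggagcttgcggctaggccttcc
Pclaf: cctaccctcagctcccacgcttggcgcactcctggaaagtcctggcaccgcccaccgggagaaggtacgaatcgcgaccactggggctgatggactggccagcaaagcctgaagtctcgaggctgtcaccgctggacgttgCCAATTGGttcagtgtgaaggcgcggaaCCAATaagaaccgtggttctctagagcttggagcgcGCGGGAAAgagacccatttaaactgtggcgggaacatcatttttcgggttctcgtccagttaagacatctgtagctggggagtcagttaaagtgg
Of 11 promoters of MCM, fork and nucleotide synthesis genes, 8 held an E2F motif, 9 held CCAAT and 1 held TTTGAA, and of the other 18 promoters 0 held an E2F motif, 14 held CCAAT and 12 held TTTGAA. The 6 shown were chosen for the results and follow this majority, whereas Mcm2 held TTTGAA and neither of the others, Pcna and Rrm1 held CCAAT alone, and Ccnb1 held no TTTGAA. Kif11 and Kif20a held CCAAT without TTTGAA, and Bub1, Aurka and Ccne1 held none of the motifs. The 11 listed genes without a single promoter include Ccna2, Ube2c, Uhrf1 and Mcm4, which are named in results below. A match is a run of letters, not a measured binding site.

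A few arrays stood apart from the rest of their tissue. In bone marrow, the array of rat 4M45 (temsirolimus with F68/PG/PEG400, 6 h) had ratios of 3′ to 5′ control signal of 25.2 for Actb and 61.8 for Gapdh, against 1.19 to 2.83 and 1.13 to 2.24 on the other 95. In liver, rat 4M48 (temsirolimus with F68/PG/PEG400, 24 h) had ratios of 9.59 and 5.51, against 1.69 to 3.04 and 1.25 to 1.81 on the other 94 liver arrays. Liver of rat 7M78 (sunitinib alone, 24 h) lay farthest from its group and had the lowest hepatocyte marker level, 14.05 against 14.29 to 14.54 in the other 95. Heart of rat 6M68 (temsirolimus plus sorafenib, 1 h) had a hepatocyte marker level of 13.87, against 5.81 to 11.73 in the other hearts. Hepatocyte signal was not limited to that heart: 20 hearts, all of rats given a drug, were above 8, where the median heart was at 6.23. Of these, 17 were in array set 1 at 6 or 24 h, while array set 2 reached at most 6.62 at those times. Each tissue carried its own defining markers, with a median level of 14.43 for hepatocyte markers in liver, 13.95 for cardiac muscle markers in heart, and 12.60 for erythroid and 12.72 for granulocyte markers in bone marrow. Within each group 2 rats were on arrays of a lower number series (array set 1) and 2 on arrays of a higher one (array set 2), and all fits held the set as a term.

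In rats given both vehicles, the 37 genes were far higher in bone marrow than in heart or liver. Whether the tissues were normalized together was not stated in the sources used here, so levels across tissues are description only. Bone marrow had a median member of 11.09, heart one of 7.51 and liver one of 7.72 (24 rats each), where the median of all genes was 7.72, 7.92 and 7.92. In bone marrow 37 of 37 members exceeded the median gene and 26 were in the highest 10% of genes, against 14 and 1 in heart and 16 and 0 in liver. Pcna, the sliding clamp of DNA polymerases, was highest of the list, at 13.59 ± 0.04 in bone marrow, against 11.51 ± 0.15 in heart and 10.63 ± 0.27 in liver (SD, n = 24). Mki67, the proliferation antigen that coats mitotic chromosomes, was at 12.97 ± 0.13, 8.52 ± 0.43 and 7.62 ± 0.92 in the same order. Cdk1, the kinase that drives entry into mitosis, was at 11.83 ± 0.11, 8.25 ± 0.47 and 8.87 ± 0.96. Heart came before liver for 17 members and liver before heart for 20, and for many of these the heart and liver ranges of 1 SD overlap in the plot of levels. Ccne2, Cdc20 and Kif11, which are in these counts, were not read from the same probe set in every tissue.

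**Figure D1:**
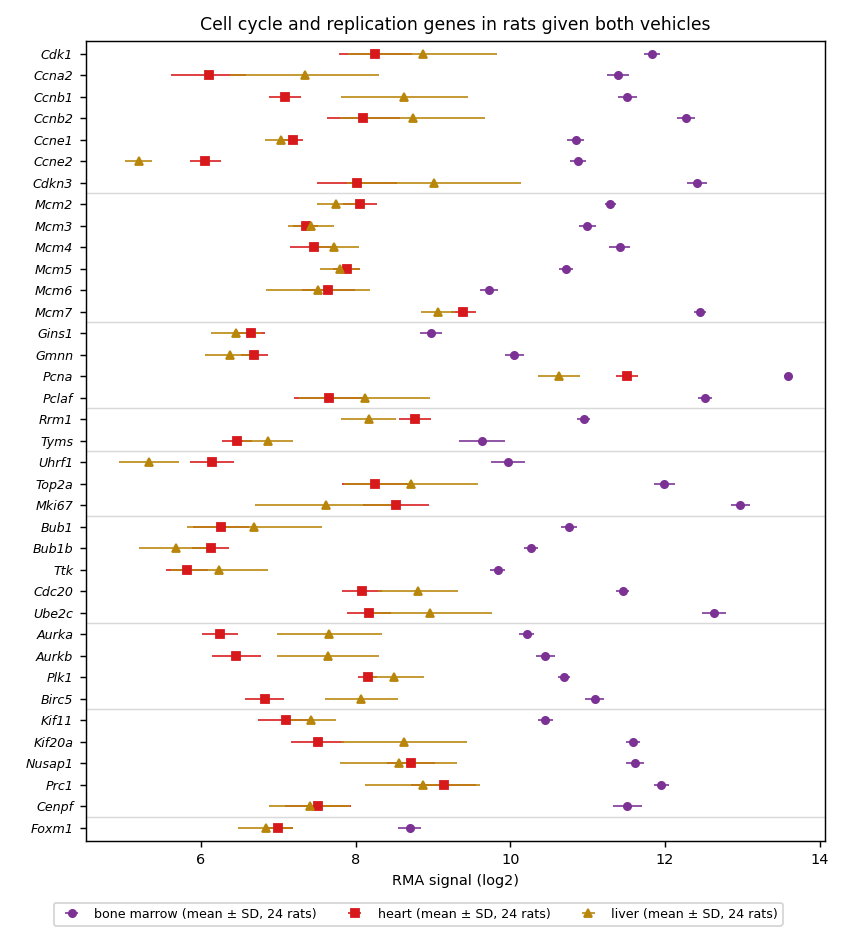
Mean RMA signal (log2, x axis) of each of the 37 genes (y axis, grouped by role) by tissue, in rats given both vehicles, with bars of 1 SD over 24 rats. Every gene was highest in bone marrow, and the bars were widest in liver.

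The spread between rats of a group followed the tissue. The residual SD of the median member was 0.39 for liver, 0.24 for heart and 0.13 for bone marrow, and that of the median gene was 0.17, 0.15 and 0.16. In liver 35 of 37 members, in heart 34 and in bone marrow 9 varied more than the median gene of the tissue. Cdkn3, a phosphatase that acts on cyclin-dependent kinases, varied most in liver (0.90) and in heart (0.54). Rats of the same treatment and time could therefore differ severalfold in the liver, and members that varied less, such as Pcna and Gmnn, passed tests at smaller changes.

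Temsirolimus without an oral drug lowered these genes in liver at 24 h. Against rats given both vehicles (8 rats on each side), 12 of 37 members fell at an adjusted p under 0.05 (limma, Benjamini-Hochberg over 14218 genes), 37 of 37 changes were negative and 33 had an unadjusted p under 0.05. Over all genes 2.30% fell by the same rule. The median change of the members was −0.56, and that of all genes was 0.01.

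Fork genes, which include the origin gene Gmnn, were the most often called role, with 3 of 4 members. Gmnn, the inhibitor that keeps an origin from being licensed again, read 5.91, 5.81, 5.86 and 6.12 in rats given temsirolimus with water and 6.16, 6.23, 6.12 and 6.13 with F68/PG/PEG400, against 6.61, 6.57, 6.66 and 6.46 in vehicle rats with water and 6.52, 6.32, 7.08 and 7.07 with F68/PG/PEG400. All 8 temsirolimus rats lay below all 8 vehicle rats. The change was −0.62 ± 0.11 (standard error, adjusted p = 8e-05), and Gmnn was the only member whose groups did not overlap, beside 0.992% of all genes that lay apart in that direction. Pcna had a lowest, median and highest signal of 10.01, 10.51 and 10.63 after temsirolimus, against 10.41, 10.72 and 11.29 in vehicle rats, a change of −0.39 ± 0.08 (adjusted p = 0.0023). Pclaf, which binds Pcna at the fork, fell by 0.97 ± 0.28 (adjusted p = 0.0385). Of the MCM helicase, Mcm2 fell by 0.31 ± 0.09 and the other 5 did not pass, and Rrm1, the large subunit of ribonucleotide reductase, fell by 0.49 ± 0.15.

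Among genes of division, Cdk1 had a lowest, median and highest signal of 6.12, 7.52 and 8.86 after temsirolimus, against 7.53, 8.93 and 10.07 in vehicle rats. The groups overlapped, with 4 of 8 temsirolimus rats below every vehicle rat. Its change was −1.28 ± 0.34 (adjusted p = 0.0177). Ccna2, a cyclin of DNA synthesis and early mitosis, fell by 1.25 ± 0.38, and Mki67 fell by 1.21 ± 0.34. Top2a, the topoisomerase that untangles sister chromatids, fell by 0.94 ± 0.27, and Ube2c, the ubiquitin-conjugating partner of the anaphase-promoting complex, fell by 0.92 ± 0.27. Prc1, a bundler of the midzone spindle, fell by 0.90 ± 0.26 and Birc5, the survivin subunit of the chromosomal passenger complex, by 0.56 ± 0.17. The 25 members that did not pass had changes down to −1.02 (Cdkn3), and the smallest was that of Ccne2 (−0.02).

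Other cell cycle genes from 3 further lists moved the same way. These lists were drawn up with the members' fall in liver known, so here and below they are description and not separate support. Of 84 measured, 21 fell and 0 rose: 8 of 29 replication genes, 2 of 16 regulators of entry into DNA synthesis and 11 of 39 mitosis genes. By p the leading ones were Fen1, the flap endonuclease of lagging strand synthesis (−0.53 ± 0.10), Cdk2 (−0.34 ± 0.08), Ect2, an activator of the contractile ring (−1.50 ± 0.36), and Wee1, the kinase that restrains Cdk1 (−0.42 ± 0.11).

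**Figure D2:**
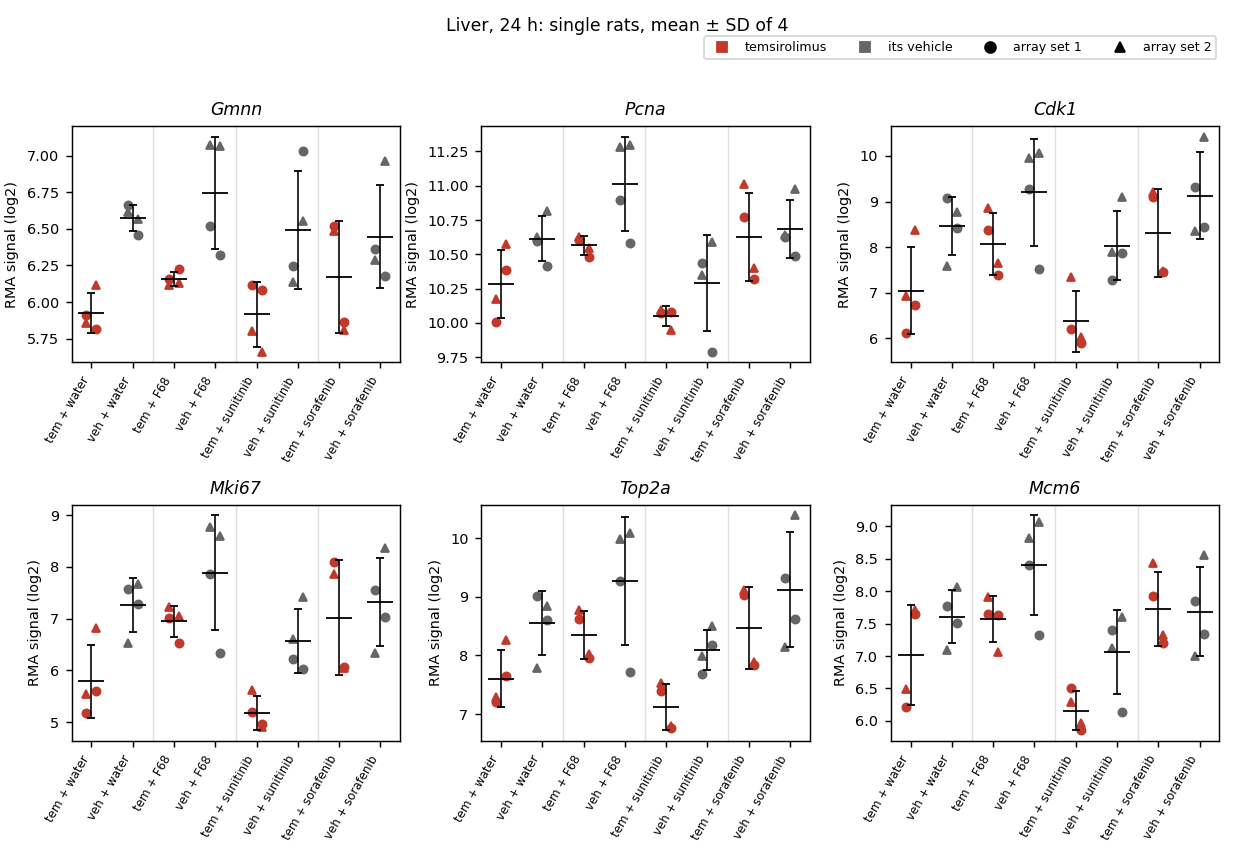
RMA signal (log2, y axis) of Gmnn, Pcna, Cdk1, Mki67, Top2a and Mcm6 in each liver at 24 h by treatment (x axis), with temsirolimus in red left of its vehicle in grey, circles for array set 1, triangles for array set 2, and bars for the mean ± SD of 4 rats. Over both oral vehicles, the 8 temsirolimus rats lay below all 8 vehicle rats in Gmnn only, and temsirolimus plus sunitinib was the lowest group in each panel.

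The direction held in both array sets: the median member changed by −0.46 in set 1 (36 of 37 lower, 0 called by limma with 2 rats per group) and by −0.67 in set 2 (37 of 37 lower, 7 called). The count of calls depended on single rats. It was 2 without vehicle rats 1M5, 2M23 or 2M24 or without temsirolimus rats 3M29 or 4M48, 3 without 3M35, 2M17, 1M12 or 1M6, 4 without 4M42, and 27 without 2M18, a vehicle rat with F68/PG/PEG400 whose 37 genes averaged 7.01, against 7.94, 8.48 and 8.53 in the rest of its group. Over these the median change ran between −0.67 and −0.49. Rat 4M48 is the array with high 3′ to 5′ ratios.

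Few marker genes of other cell types were called in this comparison, but the levels of some lists shifted. Of the 11 marker lists, 9 had no gene called, and the erythroid and hepatocyte lists had 1 gene each that fell. The endothelial level ran between 8.72 and 8.96 after temsirolimus, against 8.59 to 8.77 in vehicle rats, the megakaryocyte and progenitor level between 7.15 and 7.28, against 6.97 to 7.12, and the hepatocyte level between 14.29 and 14.47, against 14.43 to 14.52. The part of these shifts in the result was not tested. At 1 h and 6 h temsirolimus alone called 0 of 37 members in liver (0 and 0 at an unadjusted p under 0.05 in limma; 0% of all genes were called at either time), and the median changes were 0.02 and −0.14. A test of the effect at 24 h minus that at 1 h called 0 members, with 22 at an unadjusted p under 0.05 in limma. The effect at 24 h minus that at 6 h called 0 as well, with 5 at an unadjusted p and a median of −0.39. A later onset was thus not shown across genes.

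Given before sunitinib or sorafenib, with both drugs pooled, temsirolimus again lowered members in liver at 24 h. With sunitinib 4 members fell, 22 had an unadjusted p under 0.05 in limma and the median was −0.58. The sunitinib rats given TEM_vehicle include 7M78. With sorafenib 0 fell, 3 had an unadjusted p under 0.05, 34 of 37 were lower and the median was −0.37. A difference between the drugs was not tested. In the pooled test, against rats given the same oral drug with TEM_vehicle, 7 members fell and 37 of 37 changes were negative. There, 27 had an unadjusted p under 0.05 and the median was −0.43 (0.03 for all genes, of which 1.88% fell). Gmnn had a lowest, median and highest signal of 5.66, 5.97 and 6.52 with temsirolimus, against 6.14, 6.32 and 7.03 without it, a change of −0.43 ± 0.11 (adjusted p = 0.00987), and the groups overlapped. Cdk1 fell by 1.24 ± 0.34, its partner Ccnb2, a mitotic cyclin, by 1.07 ± 0.33, Prc1 by 0.82 ± 0.26, and Mcm2 by 0.29 ± 0.09. The mitotic kinases Aurka and Plk1 fell by 0.73 ± 0.23 and 0.35 ± 0.12. Of the 84 other cell cycle genes 15 fell. Without rat 7M78 the count of members was 2, with 2 also without 8M89, 5M60 or 6M66, 1 without 6M72, 0 without 8M96, and 11 to 19 without 7M84, 6M71, 6M65, 8M90, 8M95, 7M83 or 7M77. These rats share no controls with the comparison without oral drug, and in the plot of changes by gene the estimates of both comparisons lie left of 0 for every member. At 6 h in liver the direction was not the same. Temsirolimus in sunitinib rats had 33 of 37 members higher, with a median of 0.31. Of these, 9 had an unadjusted p under 0.05 in limma, and 0 members and 0 genes were called. In sorafenib rats at 6 h 28 of 37 were lower, with a median of −0.09 and 0 members called.

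**Figure D3:**
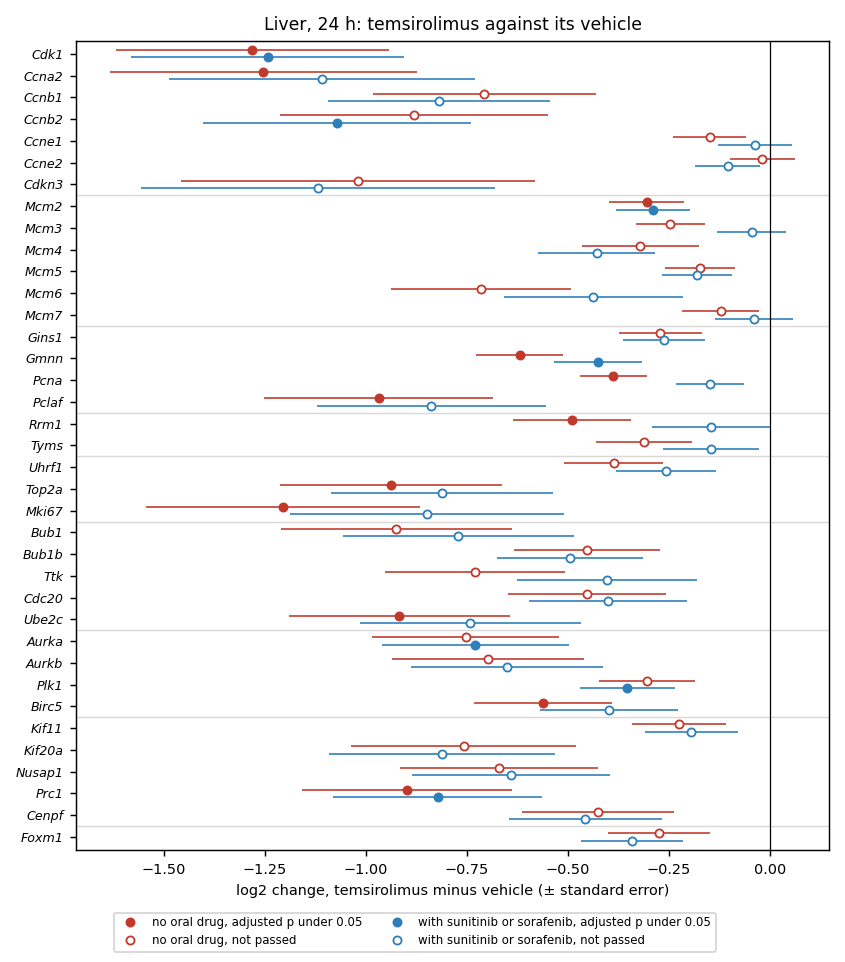
Change at 24 h in liver (log2, temsirolimus minus vehicle, x axis) for each of the 37 genes (y axis) in rats without an oral drug (red) and with sunitinib or sorafenib (blue), with bars of 1 standard error and filled points where the adjusted p was under 0.05. All 74 points lie below 0, 12 red and 7 blue ones are filled, and Cdk1 is at −1.28 and −1.24.

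Temsirolimus plus sunitinib gave the lowest levels in liver at 24 h. Against rats given both vehicles with water (4 rats a side), 11 members fell, 37 of 37 changes were negative, 28 had an unadjusted p under 0.05 and the median was −0.66 (all genes 0.01, of which 0.957% fell). Mcm4, a subunit of the replicative helicase, read 6.69, 6.21, 6.68 and 6.47 with both drugs, against 7.46, 7.78, 7.38 and 7.49 with both vehicles, and fell by 1.02 ± 0.20 (adjusted p = 0.00293). Cdk1 read 6.21, 5.90, 7.35 and 6.02, against 7.58, 8.78, 9.07 and 8.42, and fell by 2.09 ± 0.48. Mki67 read 5.19, 4.96, 5.62 and 4.90, against 6.52, 7.66, 7.57 and 7.29, and fell by 2.09 ± 0.48. The groups did not overlap in 19 of 37 members, among them these 3 and the other 8 that passed, beside 6.72% of all genes that lay apart in that direction. The rest were Mcm6 (−1.45 ± 0.31), Mcm2 (−0.51 ± 0.13), Pcna (−0.56 ± 0.12), Pclaf (−1.67 ± 0.40), Gmnn (−0.66 ± 0.15), Rrm1 (−0.76 ± 0.21), Ccna2 (−2.05 ± 0.54) and Top2a (−1.44 ± 0.39). By role, 3 of 6 MCM and 3 of 4 fork genes passed, with median changes of −0.43 and −0.61. None of the 5 spindle, 5 checkpoint and 4 mitotic kinase and passenger genes passed, and all were lower, with medians of −0.83, −0.63 and −0.63. No difference between roles was tested. Leaving out 1M5 or 5M60 left 3, 1M12 left 6, and 5M59 or 1M6 left 7. Of the other cell cycle genes 10 fell, led by Fen1 (−0.67 ± 0.13), Timeless (−1.04 ± 0.22), Rfc2 (−0.49 ± 0.11) and Rfc4 (−0.75 ± 0.18), all of the replication list.

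The oral drugs alone called no member in liver at 24 h. With sunitinib the median change was −0.13, beside −0.09 for all genes, 7.92% of which fell, and 0 members were called (3 at an unadjusted p under 0.05 in limma). The sunitinib rats include 7M78, whose liver lay farthest from its group and is in array set 1. Over all genes, array set 1 alone had a median of −0.18 with 5081 genes called, and set 2 alone −0.005 with 0 called. With sorafenib the median was −0.15, 0 members were called (6 at an unadjusted p) and 0.0492% of all genes fell. That median had no settled sign: it ran between −0.40 and 0.06 on leaving out single rats, and was 0.11 in array set 1 and −0.46 in set 2. The median of the members after sunitinib was −0.36 in array set 1 and 0.08 in set 2. Temsirolimus plus sorafenib had a median of −0.52, with 37 of 37 lower, 0 called (14 at an unadjusted p) and 0.394% of all genes called lower. These comparisons share their vehicle rats with those above. The sorafenib vehicles carried rat 2M18, and without it 6 members fell after temsirolimus plus sorafenib and 1 after sorafenib alone. The count for the pair was 1 without 6M65 or 2M17 and 2 without 6M71. The median after temsirolimus plus sorafenib was −0.05 in array set 1 and −0.97 in set 2.

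No change in the effect of temsirolimus with an oral drug passed the test. In 18 tests of interaction (3 tissues, 3 times, 2 oral drugs) 0 members were called by limma, and at most 14 had an unadjusted p under 0.05 in any of them. In 9 tests of its effect in F68/PG/PEG400 minus that in water 0 members were called as well, with at most 10 at an unadjusted p, in bone marrow at 6 h. Between the vehicles themselves, F68/PG/PEG400 against water in liver at 24 h called 0 members (18 at an unadjusted p, all higher, 0% of all genes called), with a median of 0.50 that was −0.10 in array set 1 and 1.10 in array set 2. Within array set 2 the vehicle groups thus differed by more than the median changes after temsirolimus.

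In liver these genes also differed between times after dosing without any drug. Each time has its own rats, and array sets were not the same at 1, 6 and 24 h. Time and array set thus cannot be wholly told apart. At 6 h against 1 h in rats given both vehicles (8 rats each), 19 members fell, 37 of 37 changes were negative and 29 had an unadjusted p under 0.05. Over all genes 1.06% fell, and the median change was −0.56 for members and 0.00 for all genes. By role 4 of 5 checkpoint, 4 of 5 spindle, 3 of 4 mitotic kinase and passenger, 2 of 7 cyclin and kinase, 2 of 3 chromatin, 2 of 4 fork and 1 of 6 MCM genes fell, as did Foxm1, and neither nucleotide synthesis gene did.

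Top2a had a lowest, median and highest signal of 7.50, 7.95 and 8.55 at 6 h, against 7.83, 9.36 and 10.06 at 1 h, and fell by 1.28 ± 0.27 (adjusted p = 0.00275). Nusap1, a microtubule-binding protein of the spindle, was at 7.34, 8.04 and 8.68, against 8.03, 9.22 and 9.66, and fell by 1.14 ± 0.24. In both genes the ranges overlapped through 1 low liver at 1 h, that of rat 1M7. Ube2c was at 7.57, 8.43 and 8.97, against 8.43, 9.66 and 10.17, and fell by 1.23 ± 0.27. Prc1 was at 7.41, 8.41 and 8.99, against 8.38, 9.46 and 9.95, and fell by 1.12 ± 0.26. Both had 4 of 8 livers at 6 h below all livers at 1 h. Cdk1 was at 7.15, 8.20 and 9.13, against 8.15, 9.73 and 10.17, and fell by 1.43 ± 0.34. Plk1, a kinase of centrosome maturation and spindle assembly, was at 8.05, 8.25 and 8.47, against 8.21, 8.80 and 9.16, and fell by 0.50 ± 0.12. For Cdk1 4 and for Plk1 3 of 8 livers at 6 h lay below all at 1 h. Bub1, a spindle checkpoint kinase, was at 5.30, 6.21 and 7.02, against 6.02, 7.55 and 7.86, and fell by 1.18 ± 0.29. Ccnb1, the main cyclin partner of Cdk1 in mitosis, was at 7.53, 8.16 and 9.14, against 8.03, 9.37 and 10.17, and fell by 1.10 ± 0.28. In both the groups overlapped again, with 4 of 8 livers at 6 h below all at 1 h. The next by p were Pclaf (−1.12 ± 0.28), the checkpoint kinase Ttk (−0.87 ± 0.22), the kinetochore protein Cenpf (−0.72 ± 0.19) and Kif11, the motor that parts the spindle poles (−0.44 ± 0.12).

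The other 84 genes gave 20 that fell, 18 of them among 39 mitosis genes, and 1 that rose. Cdkn1a, an inhibitor of cyclin-dependent kinases, fell by 1.13 ± 0.19, Wee1 by 0.63 ± 0.11, the mitotic kinase Pbk by 1.16 ± 0.25 and the kinetochore protein Spc25 by 1.25 ± 0.28. Array set 1 alone, whose 1 h and 6 h arrays belong to the same number series, gave a median of −0.997 with 12 members called, and set 2, whose arrays do not, −0.34 with 0 called. Without rat 2M15 the count was 9, without 1M1 it was 10, without 1M2 it was 11, and without 1M9, 2M19 or 1M3 it was 12.

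In the 6 groups given a drug, which are other rats, 31 members fell at 6 h against 1 h (24 rats each), with a median of −0.69, and 8.19% of all genes fell. Cdk1 had a lowest, median and highest signal of 6.27, 7.67 and 8.79 at 6 h, against 7.78, 9.30 and 10.47 at 1 h, and fell by 1.63 ± 0.19 (adjusted p = 6.98e-10), with 13 of 24 livers at 6 h below all at 1 h. Plk1 was at 7.86, 8.08 and 8.35, against 8.19, 8.60 and 8.93, and 19 of 24 livers lay below all at 1 h. All 14 checkpoint, kinase and spindle genes fell, 3 of 6 MCM genes did (Mcm3, Mcm5 and Mcm6), and Mcm2, Mcm4, Mcm7, Ccne1, Tyms and Cdkn3 did not pass. The difference between drug and vehicle rats in this change called 0 members (0 at an unadjusted p in limma, 0% of all genes called). Array set 1 alone gave −0.70 with 28 members called. Macrophage markers had levels up to 11.45 in vehicle rats and 11.65 in drug rats at 6 h, against up to 10.57 and 10.86 at 1 h, with 0 of 9 called in either, and their part was not tested.

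**Figure D4:**
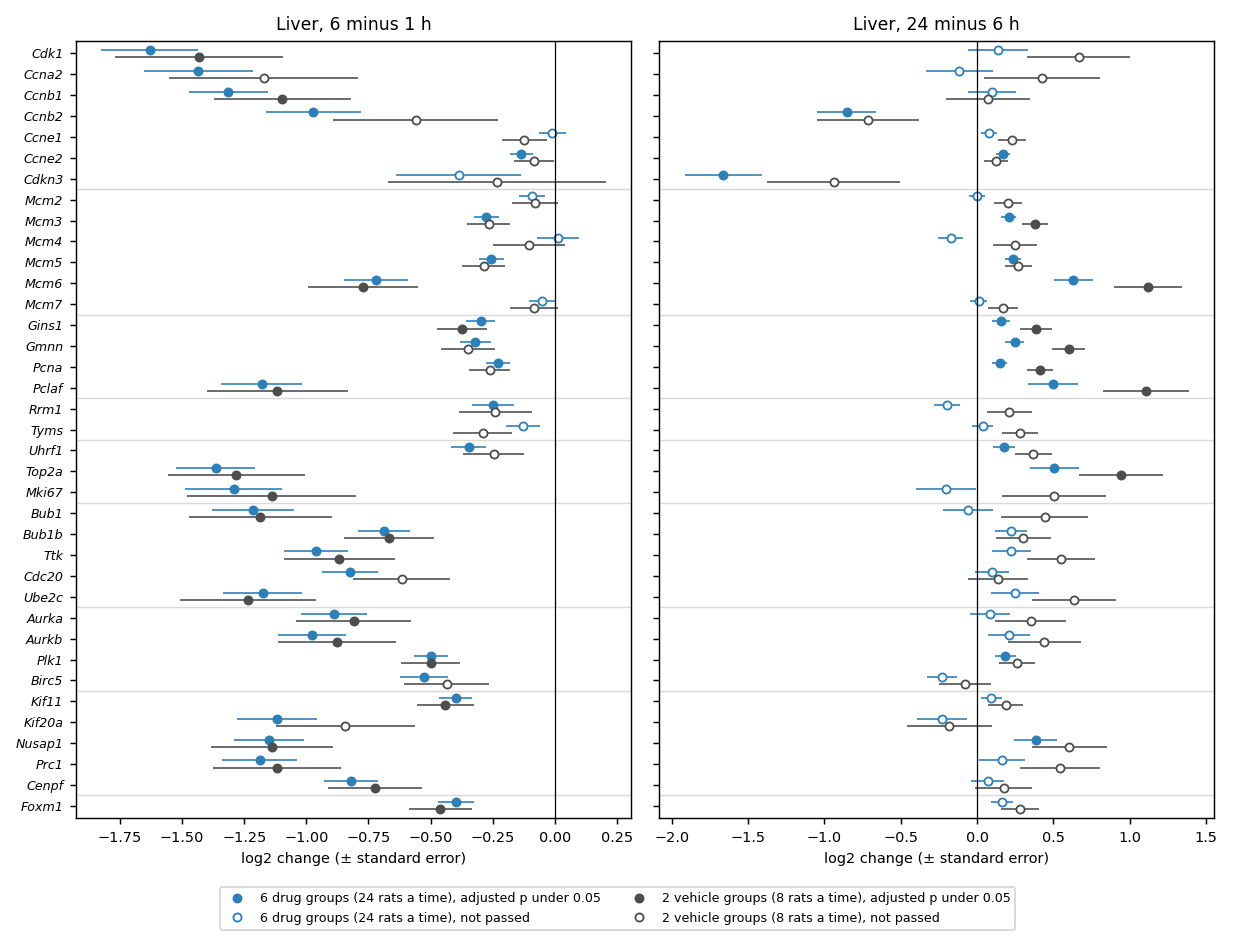
Change in liver (log2, x axis) of each of the 37 genes (y axis, by role) at 6 h minus 1 h (left) and 24 h minus 6 h (right), in the 6 drug groups (blue, 24 rats a time) and the 2 vehicle groups (dark grey, 8 rats a time), with bars of 1 standard error and filled points where the adjusted p was under 0.05. On the left nearly all points lie below 0, and on the right Mcm6 (0.63 and 1.12) lies above 0 and Cdkn3 (−1.66 and −0.94) below it in both.

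At 24 h against 6 h in vehicle livers 7 members rose, with a median of 0.30 and 2.06% of all genes higher. All 4 fork genes were among them, namely Gmnn (0.60 ± 0.11, adjusted p = 8.49e-05), Pcna (0.41 ± 0.08), Pclaf (1.10 ± 0.28) and Gins1 (0.39 ± 0.10), a subunit of the complex that activates the helicase. The rest were Mcm6 (1.12 ± 0.22), Mcm3 (0.38 ± 0.09) and Top2a (0.94 ± 0.27). Mcm6 had a lowest, median and highest signal of 7.10, 7.91 and 9.06 at 24 h, against 6.48, 6.93 and 7.28 at 6 h, and 7 of 8 livers at 24 h were above all at 6 h. The median change was 0.51 for fork, 0.26 for MCM, 0.44 for checkpoint, 0.31 for mitotic kinase and passenger and 0.19 for spindle genes, none of the last 3 roles had a gene that passed, and no difference between roles was tested. Ccnb2 (−0.72 ± 0.33) and Cdkn3 (−0.94 ± 0.44) had negative changes that did not pass. Without rat 2M18 the count was 12. The whole interval, 24 h against 1 h, called 0 members (15 lower at an unadjusted p in limma, 0.0563% of all genes lower, median −0.32, which was −0.74 in array set 1 and 0.02 in set 2).

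In the drug groups 12 members rose at 24 h against 6 h, beside 19.6% of all genes, and 2 fell, beside 24.0%. Those that rose were again the 4 fork genes (Gmnn 0.25 ± 0.06), 3 MCM genes led by Mcm6 (0.63 ± 0.13, with Mcm5 at 0.23 ± 0.05 and Mcm3 at 0.21 ± 0.05), and Ccne2, Top2a, Plk1, Nusap1 and Uhrf1. Cdkn3 had a lowest, median and highest signal of 5.67, 7.42 and 10.22 at 24 h, against 4.90, 9.49 and 10.27 at 6 h, and fell by 1.66 ± 0.25. Ccnb2 was at 5.86, 7.35 and 9.77, against 5.98, 8.33 and 9.18, and fell by 0.85 ± 0.19. In both genes the ranges at 24 h and 6 h overlapped almost throughout, and it was the medians that differed. By treatment, the median member changed by 0.62 after sorafenib, 0.36 after sunitinib, 0.30 after temsirolimus plus sorafenib and 0.19 after temsirolimus with F68/PG/PEG400, but by −0.19 after temsirolimus with water and by −0.63 after temsirolimus plus sunitinib. In array set 2 alone, on which the 6 h and 24 h arrays share a number series, the medians were 0.21 in drug rats and 0.36 in vehicle rats.

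**Figure D5:**
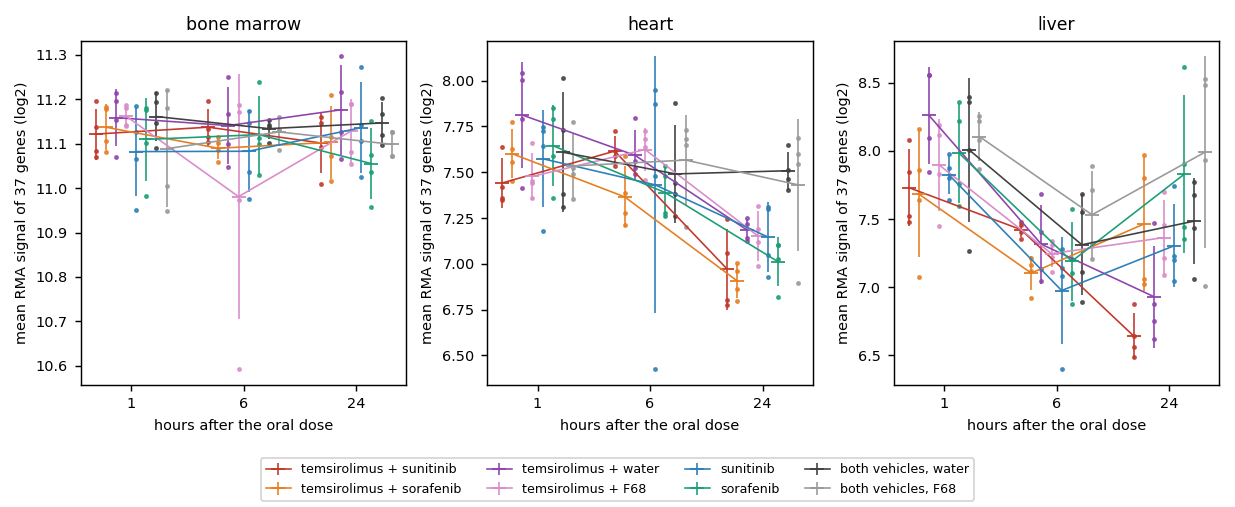
Mean RMA signal of the 37 genes (log2, y axis) in bone marrow, heart and liver at 1, 6 and 24 h after the oral dose (x axis), with a point per rat, and a line through the mean ± SD of 4 rats for each of the 8 treatments. Group means in bone marrow stay between 10.98 and 11.18, with rat 4M45 at 10.59, the drug groups in heart end between 6.91 and 7.18, and every liver group has a lower mean at 6 h than at 1 h.

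In heart, pooled over the groups given a drug, these genes were lower at 24 h than at 6 h. At 24 h against 6 h in the 6 drug groups 31 members fell, 36 of 37 changes were negative, the median was −0.39 (0.00 for all genes) and 11.8% of all genes fell. Ccna2 had a lowest, median and highest signal of 4.31, 5.07 and 5.78 at 24 h, against 4.62, 6.17 and 7.10 at 6 h, and fell by 1.03 ± 0.12 (adjusted p = 2.03e-10). Kif11 was at 5.97, 6.43 and 6.74, against 5.77, 7.18 and 7.78, and fell by 0.74 ± 0.10. Cdk1 was at 6.43, 7.37 and 7.92, against 5.84, 8.32 and 9.13, and fell by 0.99 ± 0.14. In all 3 genes the groups overlapped and the lowest heart at 6 h was that of rat 7M76 (sunitinib alone), whose 37 genes averaged 6.43. Kif20a (−0.72 ± 0.10), a motor of cell division, Nusap1 (−0.71 ± 0.10), Top2a (−0.75 ± 0.10), Cenpf (−0.73 ± 0.10), Ccnb2 (−0.94 ± 0.13), Cdkn3 (−1.06 ± 0.15), Bub1 (−0.61 ± 0.09), Pclaf (−0.90 ± 0.13) and Birc5 (−0.43 ± 0.06) followed by p. All 14 checkpoint, kinase and spindle genes fell, with 4 of 4 fork, 3 of 6 MCM and 0 of 2 nucleotide synthesis genes. Of the 84 other cell cycle genes 52 fell and 1 rose, 31 of those that fell among 39 mitosis genes.

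Vehicle rats over the same interval called 0 members in heart (2 lower at an unadjusted p under 0.05 in limma, median −0.06, 0.605% of all genes lower). Ccna2 in vehicle hearts was at 5.15, 6.10 and 6.64 at 24 h, against 5.32, 6.04 and 6.61 at 6 h, a change of −0.03 ± 0.21. The difference between drug and vehicle rats was negative for 37 of 37 members with a median of −0.30, and 22 had an unadjusted p under 0.05, but 0 were called and 0.0774% of all genes were. Ccna2 came nearest, at −1.01 ± 0.24 (adjusted p = 0.0508). By drug group the medians ran between −0.27 (sunitinib) and −0.48 (temsirolimus plus sunitinib). Taken singly, sorafenib and temsirolimus with water called 0 members lower, and sunitinib called 1. Temsirolimus plus sorafenib called 5, temsirolimus with F68/PG/PEG400 11 and temsirolimus plus sunitinib 16. The share of all genes called was not worked out for these counts. Within array set 2, on which these arrays share a number series, the drug rats had −0.46 with 27 members called. Macrophage markers moved with this result, with 7 of 9 lower and levels of 7.05 to 8.74 at 24 h, against 7.99 to 9.69 at 6 h. Their part in it was not tested. With hepatocyte signal as a covariate 31 members fell, and the part of that signal was not tested either.

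At 24 h the median change in heart was negative after each drug and each pair. Temsirolimus alone called 2, beside 0.239% of all genes: Mcm6 (−0.49 ± 0.12) and Uhrf1 (−0.48 ± 0.12), which maintains DNA methylation at the fork, with 36 of 37 lower, a median of −0.27 and 19 at an unadjusted p under 0.05. The call was lost on leaving out most single rats, with 0 left without 2M17, 3M29, 2M24, 1M5, 1M11, 3M36, 2M23, 3M35, 4M47, 4M42 or 4M48, 1 without 1M6, 4M41 or 3M30, and 4 without 2M18. Given with an oral drug, temsirolimus called 0 (2 at an unadjusted p in limma, median −0.11, 0.239% of all genes). Mcm6 in heart was at 6.85, 7.12 and 7.47 after temsirolimus alone, against 6.75, 7.65 and 8.08 in vehicle rats, and the ranges overlapped through rat 2M18. Hepatocyte signal was at 6.06 to 11.73 after temsirolimus alone, against 6.00 to 7.67 in vehicle rats. With it as a covariate 2 members fell, and its part was not tested.

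Sunitinib alone called 5 in heart at 24 h, beside 2.55% of all genes, with a median of −0.33. Bub1b, a spindle checkpoint protein, read 5.58, 5.68, 5.31 and 5.82 after sunitinib, against 6.19, 6.16, 6.23 and 6.26 with both vehicles, and fell by 0.61 ± 0.18. Pclaf read 6.05, 6.89, 5.93 and 7.30, against 8.10, 7.57, 7.62 and 7.60, and fell by 1.18 ± 0.33. Mcm4 (−0.61 ± 0.17), Ttk (−0.64 ± 0.18) and Rrm1 (−0.36 ± 0.11) also fell. The groups did not overlap in 12 of 37 members, Rrm1 not among them, beside 4.07% of all genes that lay apart in that direction. None remained without 1M5, 1M11 or 7M83, 1 without 7M77 and 3 without 7M78 or 1M12. Temsirolimus plus sunitinib, against the same vehicle rats, called 2, beside 0.141%, with 29 at an unadjusted p and a median of −0.47. They were Pclaf, at 6.25, 5.68, 6.80 and 5.18 and lower by 1.74 ± 0.33 on the log2 scale, and Bub1b (−0.76 ± 0.18). Leaving out 1M11 or 5M60 left 0, 5M54, 1M5, 5M53 or 1M12 left 1, 1M6 left 5 and 5M59 left 6, and without heart 6M68, which is in neither group but enters the spread, 10 were called. Hepatocyte signal was high in these groups, at 6.01 to 11.48 after both drugs and 6.10 to 8.28 after sunitinib alone, against 6.03 to 7.67 with both vehicles. With that signal as a covariate 4 and 5 members fell. In array set 2, whose hearts at 24 h had none above 8, the medians were −0.47 and −0.30. Every heart above 8 was of a rat given a drug, so the covariate cannot wholly tell signal and drug apart. The part of this signal was not tested.

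Sorafenib alone called 0 in heart at 24 h (22 at an unadjusted p under 0.05 in limma, 0.324% of all genes lower, median −0.35), and 1 without rat 2M18. Temsirolimus plus sorafenib called 5, beside 0.570%, with a median of −0.46. Ccna2 read 4.31, 4.62, 4.70 and 4.66 with both drugs, against 6.47, 5.15, 6.37 and 6.64 with both vehicles, and fell by 1.59 ± 0.30, and it was among 3 of 37 members without overlap, beside 4.11% of all genes lower in this way. Top2a read 7.09, 6.89, 7.26 and 6.88, against 8.44, 7.21, 8.48 and 8.40, and fell by 1.10 ± 0.25, with an overlap through rat 2M18. Pclaf (−1.37 ± 0.33), Uhrf1 (−0.66 ± 0.17) and Cdk1 (−1.26 ± 0.33) also fell. The count was 1 without 2M17, 2M24, 6M72 or 2M23, 2 without 6M65, 3 without 6M66 or 6M71, and 11 without 2M18. Macrophage markers fell too, 7 of 9 after both drugs (levels 7.05 to 7.64, against 8.23 to 8.77) and 6 of 9 after sorafenib alone (7.42 to 7.80), and their part was not tested. Hepatocyte signal was at 5.92 to 9.59 after both drugs and 6.08 to 8.55 after sorafenib alone, against 6.00 to 6.49. With it as a covariate 6 and 0 members fell, and its part was not tested. At 6 h temsirolimus plus sorafenib lowered Mcm2 alone (0.513% of all genes), which read 7.41, 7.76, 7.81 and 7.66, against 8.00, 7.85, 8.40 and 8.36 (−0.49 ± 0.11). That call was lost without 2M21, 2M22, 6M70 or 6M63.

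In bone marrow, where these genes are highest, few changes passed the test. In 24 comparisons of treatments, vehicles and times in vehicle rats, 0 members were called by limma, with at most 13 at an unadjusted p under 0.05. Their medians ran between −0.06 and 0.07 and single changes between −0.45 and 0.26. These include temsirolimus alone at 6 h (0% of all genes called), temsirolimus alone at 24 h (0.352%) and sorafenib alone at 24 h (3.70%). Cdk1 had a lowest, median and highest signal of 11.75, 11.85 and 11.95 after temsirolimus alone at 24 h, against 11.68, 11.81 and 11.96 in vehicle rats, and Gmnn was at 9.96, 10.11 and 10.31, against 9.88, 10.07 and 10.19. In drug rats 1 member rose and 1 fell at 6 h against 1 h (Ccnb2 0.10 ± 0.03, Aurka −0.10 ± 0.03, beside 7.76% of all genes). At 24 h against 6 h Ccna2 (0.15 ± 0.04), Mki67 (0.13 ± 0.03) and Pcna (0.06 ± 0.02) rose and Foxm1 fell by 0.14 ± 0.04, beside 12.0%. In neither interval was the share of members called above that of all genes, so these calls are not particular to the members. Without 4M45 the counts of members called were 4 and 8. Over the later interval array set 1 alone had a median of −0.09 with 10 members lower, and array set 2 alone 0.12 with 7 higher, so the direction differed between sets.

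Some larger counts in bone marrow came from comparisons with the group that holds rat 4M45, whose 37 genes averaged 10.59. Temsirolimus within the F68/PG/PEG400 arm at 6 h called 11 lower and 2 higher, beside 11.9% of 14218 genes lower and 847 genes higher. It called 0 lower without rat 4M45, 2M21 or 2M22, and 17 without 4M40. Taken alone, rats given temsirolimus with F68/PG/PEG400 had 15 members lower and 1 higher at 6 h against 1 h, and 13 higher and 2 lower at 24 h against 6 h. Each of the other 7 treatments had 0 in either interval. The share of all genes called was not worked out for these counts, so they cannot be read as particular to the members. In the same rats' livers and marrows at 24 h, the effect of temsirolimus alone in liver minus that in bone marrow called 5 members, beside 0.570% of all genes, with 28 at an unadjusted p and a median of −0.62. They were Gmnn (−0.69 ± 0.16, adjusted p = 0.0135), Pcna (−0.40 ± 0.09), Cdk1 (−1.31 ± 0.34), Mki67 (−1.25 ± 0.34) and Prc1 (−0.96 ± 0.26). The effect in liver minus that in heart called 0 (10 at an unadjusted p in limma, median −0.31, 0.197% of all genes), and that in heart minus bone marrow called 0 (20 at an unadjusted p, median −0.33, 0.0141%).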

How the data were processed

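The deposited values were log2 signals that the authors made by RMA from Affymetrix Rat Genome 230 2.0 arrays, per the labels and the study's methods, and the version of RMA and the genome build were not given in the sources used here. RMA forces similar overall distributions on the arrays it treats together, so a change is relative to the other genes of a tissue. Arrays have no depth, and precision is set by how many rats were used. Probe sets were named through the platform's annotation table, only those with a single symbol were kept, and the highest mean chose among several. Each tissue was fitted alone in limma 3.58.1 (R 4.3.3) with 24 group means and a term for the array set at each time, eBayes without trend, and Benjamini-Hochberg adjustment over 14218 genes. A gene was called at an adjusted p under 0.05. Differences between tissues were fitted within the rat. Replicates were separate rats, and what the array sets stand for is not stated. The study's methods describe dosing spread over 2 days with 2 rats of a group on each, a split of the same shape, so a set may be a day of dosing.

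The members, the 3 further cell cycle lists, the marker lists and the comparisons were chosen with earlier results of these data known, including the members' fall in liver after temsirolimus. Called members were named with their values in order of p, up to 12 a comparison, and other cell cycle genes up to 4. The drug rats' changes with time, the fits of each array set alone and the test between oral vehicles were added after values were seen. Alternatives were a filter on dim genes, a further quantile normalization, no array-set terms, array quality weights, the mean of all probe sets, another variance moderation, covariates for hepatocyte or erythroid markers, each oral vehicle alone, and leaving out single rats. The fit was tested on simulated data. Promoters are RefSeq's.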

Additional observations from a re-analysis of the deposited data

Results flagged for a closer look

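The 4 rats of each group were compared by their mean over the 37 genes, and 1 of 72 groups had a rat far from the rest. In heart, 6 h after TEM_vehicle and F68/PG/PEG400, rat 2M16 averaged 7.2, against 7.65 to 7.73 in the other 3 rats. By chance about 1 group in 20 would be set apart by this measure.

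The effect of temsirolimus alone at 24 h differed between 2 tissues of the same rats, with 5 members lower in liver than in bone marrow by a test of the difference. They were Gmnn (−0.69 ± 0.16), Pcna (−0.40 ± 0.09), Cdk1 (−1.31 ± 0.34), Mki67 (−1.25 ± 0.34) and Prc1 (−0.96 ± 0.26). Without single rats the count ran between 0 (without 2M24) and 17 (without 2M18).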

How the results depend on the processing

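Of 6396 values of single members under alternatives, 5857 kept their direction and call, 537 kept the direction and lost the call, and 2 changed sign, both Top2a in bone marrow after temsirolimus in F68/PG/PEG400 at 6 h, at 0.014 without rat 4M45 (lowest −0.47, without another rat of that group). Of 786 medians, 0 moved by more than the residual SD of the median member of the tissue, a wide bound (0.39 in liver). Among those with a main median beyond 0.1 in size, 2 took the other sign. Both were after sorafenib alone in liver at 24 h, at 0.03 and 0.06 without 1 rat. Medians nearer to 0 were left out of that count, and some crossed 0. That of temsirolimus alone in liver at 1 h ran between −0.09 and 0.10 on leaving out single rats. The fits of each array set alone are not among these 786, and they moved some medians further. In liver at 24 h, sets 1 and 2 gave −0.10 and 1.10 for F68/PG/PEG400 against water, where both together gave 0.50. For temsirolimus plus sorafenib they gave −0.05 and −0.97, where both together gave −0.52. Counts of members called moved more than these 786 medians, and the cause was not tested. In liver at 24 h, temsirolimus alone called 7 without array-set terms, 25 with array quality weights, 2 without 4M48, 1 in water alone and 2 in F68/PG/PEG400 alone. With an oral drug it called 13 among genes at 6 or above, 15 after quantile normalization, 3 with weights, 11 without 4M48 and 2 without 7M78. Temsirolimus plus sunitinib called 20 with weights, and temsirolimus plus sorafenib called 1 with the filter, 1 after quantile normalization, 6 with weights and 2 without 7M78. In vehicle livers weights gave 15 at 24 against 6 h and 3 at 24 against 1 h, the last 2 without 7M78.

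In heart at 24 h, temsirolimus alone called 1 with the filter, 0 without set terms, 7 with weights, 0 with the mean of all probe sets, 1 in water alone and 0 in F68/PG/PEG400 alone. Sunitinib called 3 without set terms and 0 with weights, and sorafenib 13 with weights. Temsirolimus plus sunitinib called 4 with the filter, 1 without set terms, 1 with weights, 10 without 6M68 and 4 with the hepatocyte covariate. Temsirolimus plus sorafenib called 3 with the filter, 3 without set terms and 26 with weights, and at 6 h 2 after quantile normalization, 5 with weights and 3 without 6M68. In bone marrow, temsirolimus at 6 h called 13 in F68/PG/PEG400 alone, and the lower calls of that arm were 6 without set terms, 0 with weights and 0 without 4M45. Sorafenib at 24 h called 1 with weights and 1 without 4M45. Drug rats gave 5 with the filter, 5 after quantile normalization, 0 without set terms and 4 without 4M45 at 6 against 1 h, and 9 with weights and 8 without 4M45 at 24 against 6 h.

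Replicates numbered alike in different groups are different rats, so pairing applies only between tissues of a rat: with no replicate block, liver minus bone marrow called 3 in place of 5.

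Leaving out 1 rat at a time, counts in liver at 24 h ran between 2 and 27 (temsirolimus alone), 0 and 19 (with an oral drug), 3 and 13 (with sunitinib against vehicles), 0 and 6 (with sorafenib against vehicles), 0 and 3 (sunitinib; 3 without 7M77 or 7M84, 1 without 7M83), 0 and 1 (sorafenib) and 0 and 1 (vehicle against vehicle, 1 without 2M18). With time in liver they ran between 9 and 25, 5 and 12, and 0 and 1 in vehicle rats (6 against 1 h, 24 against 6 h, and 24 against 1 h, the last 1 without 1M7), and between 29 and 31, 9 and 14 higher, and 2 and 5 lower in drug rats (4 or 5 lower without 6M65, 3M30, 8M96, 3M34, 4M41, 7M84, 3M33, 5M58, 6M71 or 7M76). In heart they ran between 0 and 4 (temsirolimus), 0 and 7 (sunitinib), 0 and 1 (sorafenib), 0 and 6 (temsirolimus plus sunitinib), 1 and 11 (temsirolimus plus sorafenib), 0 and 2 (that pair at 6 h) and 30 and 32 (drug rats, 24 against 6 h). In bone marrow they ran between 0 and 13 for temsirolimus at 6 h (9 without 4M39, 10 without 4M40, 13 without 4M46), 0 and 17 within F68/PG/PEG400, 4 and 8 for drug rats at 24 against 6 h, and 0 and 5 at 6 against 1 h (0 without 5M55, 5 without 7M79, 1 without 3M25, 7M76, 8M93 or 5M56, and 4 without 5M50, 3M28, 4M46, 4M39, 8M88, 4M45 or 7M82). Liver minus bone marrow ran between 0 and 17, with 2 without 1M5, 3M35, 3M30, 4M48, 2M17, 4M42, 1M12, 3M29, 1M6 or 2M23, 3 without 4M47 and 8 without 1M11.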
